A study of Mus musculus with 2 samples.

Results

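The 9 genes described here handle stored iron and sense it: the ferritin subunits Fth1 and Ftl1, the iron regulatory proteins Aco1 and Ireb2, the iron-sensing ligase subunit Fbxl5, the ferritin cargo receptor Ncoa4, the ubiquitin ligase Herc2, and the RNA-binding proteins and iron chaperones Pcbp1 and Pcbp2. They were chosen by symbol, and 9 of 9 were found among the 55536 mouse genes of the GENCODE M21 gene table. Polyadenylated RNA was sequenced from G1E-ER4, a mouse erythroid line made from Gata1-null cells in which an estradiol-dependent fusion protein brings GATA1 activity back. All cells had received 17beta-estradiol at 10 nM for 24 h, a treatment that starts erythroid maturation. The series held 1 group of 2 libraries, replicates 1 and 2. The line traces to 1 donor, and both libraries share 1 biosample record, so their spread may be technical. With no untreated sample the values are levels, not responses to estradiol, and no test between conditions could be made.

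Expected counts, the authors' estimated fragments per gene, totalled 71485617 for replicate 1 and 14121747 for replicate 2, a depth ratio of 5.06. The erythroid label held against its markers: 10 of 10 erythroid markers reached 1 TPM (transcript abundance per length on a fixed total) in both libraries. Markers of macrophages, which also hold much ferritin, were detected for 2 of 10 genes, Spi1 and Hmox1. The summed level of all 10 was 52.2 TPM in replicate 1 and 33.9 TPM in replicate 2, with Hmox1 at 45.68 and 27.45 TPM. Of the 10, 5 had no counts in either library, among them Csf1r, Lyz2 and Cd163. Hepatocyte, granulocyte and lymphoid markers were detected for 0 of 5, 0 of 6 and 0 of 6 genes found, and megakaryocyte markers for 3 of 6.

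Ferritin is a hollow protein shell of heavy (Fth1) and light (Ftl1) chains in which the heavy chain oxidises iron and the light chain helps to lay it down as mineral. Iron regulatory proteins bind a hairpin, the iron responsive element, in mRNAs when iron is scarce, which blocks translation of ferritin and protects the transferrin receptor mRNA. When iron is plentiful, Aco1 takes up an iron-sulfur cluster and becomes an aconitase, and Fbxl5 directs the destruction of Ireb2. Ncoa4 carries ferritin to the lysosome, a route called ferritinophagy that supplies iron for heme in erythroid cells, and HERC2 targets NCOA4 for degradation in human cells. Human PCBP1 and PCBP2 bind iron and pass it to ferritin.

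The hairpins are shown here because the ferritin results below turn on which transcript models carry them. Each line is 30 bases of a GENCODE M21 transcript, 5′ to 3′. The capitals mark the unpaired C and the 6-base loop CAGTGN, between which and after which lie the 5 bases of each side of the stem.
Fth1: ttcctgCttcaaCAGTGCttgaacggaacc
Ftl1: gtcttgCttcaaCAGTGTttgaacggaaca
Slc40a1: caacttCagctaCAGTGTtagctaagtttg
Alas2: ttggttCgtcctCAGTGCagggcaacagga
Tfrc: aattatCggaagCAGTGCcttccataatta

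The Fth1 hairpin lies in the 5′ UTR at chr19:9982732-9982761 (mm10, plus strand), and that of Ftl1 in the 5′ UTR at chr7:45459778-45459807 (minus strand). Counting from 1 at the 5′ end of the printed window, the Ftl1 sequence differs from that of Fth1 by the substitutions T1G, C4T, C18T and C30A, of which C18T is the last base of the loop. The other 3 lines come from genes outside the 9: Slc40a1, the iron exporter (5′ UTR, chr1:45925464-45925493, minus strand); Alas2, the first enzyme of heme synthesis in erythroid cells (5′ UTR, across a splice junction); and Tfrc, the transferrin receptor (the first of 4 matches in its 3′ UTR, chr16:32631219-32631248, plus strand). The pattern was searched on the sense strand of transcripts, as an unpaired C, 5 stem bases, the loop CAGTGN and 5 bases that pair with the stem, G-T pairs allowed. It was present in 890 of 141767 M21 transcripts, 0.628%, from 448 genes. Within the first 150 bases it was present in 0.0597% of 135671 transcripts. No transcript of Aco1, Ireb2, Fbxl5, Ncoa4, Herc2, Pcbp1 or Pcbp2 held these letters in this order, which describes the models and not the binding of any protein. The search also missed known carriers. Of 8 genes whose mRNAs are known to carry the element, 5 had a match in a UTR. Slc11a2 and Epas1, both on that list, had no match in any transcript. A gene without a match may therefore still carry an element of another form.

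The 9 genes ran from the ferritins, among the most abundant mRNAs of these cells, to Ireb2 at about 1 TPM. Detection meant at least 1 TPM in each library, and 8 of the 9 genes met it, against 33.1% of the 22028 protein-coding genes. Ireb2 was the exception. Ordered by mean TPM the genes ran Fth1, Ftl1, Pcbp1, Pcbp2, Herc2, Ncoa4, Aco1, Fbxl5, Ireb2. The values of both libraries overlapped between 3 pairs of neighbours in that order, namely Fth1 and Ftl1, Herc2 and Ncoa4, and Aco1 and Fbxl5. In bulk RNA a lower share of cells that express a gene and less of its RNA per cell cannot be told apart.

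**Figure D1:**
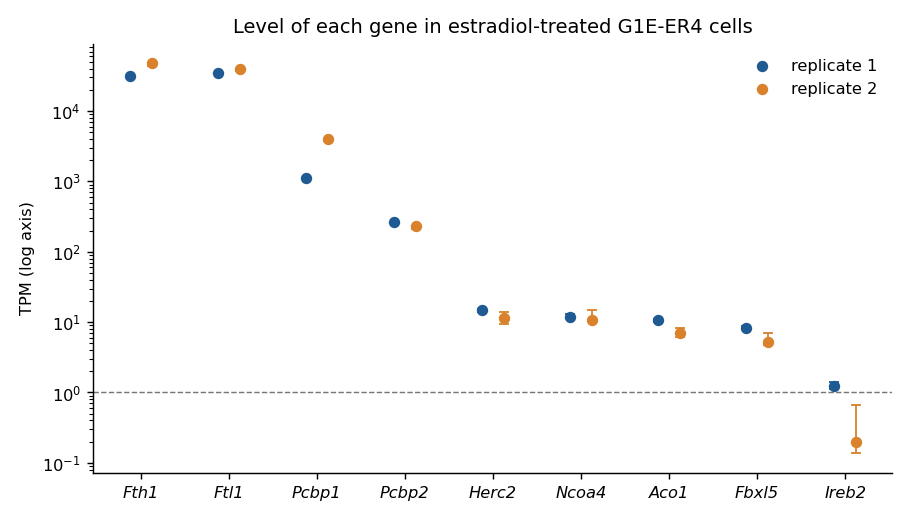
TPM of each of the 9 genes (vertical axis, log scale) in replicates 1 and 2, ordered by mean; bars are the authors' interval around the posterior mean estimate and the dashed line marks 1 TPM. Fth1 and Ftl1 stand at 30980 TPM or more in both libraries, Herc2, Ncoa4, Aco1 and Fbxl5 lie between 5.25 and 14.7 TPM, and Ireb2 is the only one with a point under 1 TPM.

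Both ferritin chains ranked with the globins among the 5 highest genes of each library. Fth1 (ENSMUSG00000024661.7, chr19:9980598-9985098, plus strand) measured 30980 and 47326 TPM in replicates 1 and 2 (mean 39153 ± 11558 TPM, SD, n = 2). It ranked 5th of all genes in replicate 1 and 1st in replicate 2. Ftl1 (ENSMUSG00000050708.16, chr7:45457944-45459884, minus strand) measured 34841 and 40054 TPM in replicates 1 and 2 (mean 37447 ± 3687 TPM, SD, n = 2). It ranked 3rd in replicate 1 and 2nd in replicate 2. Beside them, the globin mRNAs Hbb-bs and Hba-a1 were at 97719 and 67200 TPM in replicate 1, above both ferritins, and at 34786 and 30385 TPM in replicate 2, below both.

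The 2 ferritin chains made up 6.58% and 8.74% of all TPM in replicates 1 and 2 (mean 7.66% ± 1.52, SD, n = 2). Of the expected counts, which are not divided by length, they took 3.01% in replicate 1 (Wilson 95% interval 3.01 to 3.02%) and 3.48% in replicate 2 (3.47 to 3.49%). These intervals cover counting error only and do not overlap. The ratio of Fth1 to Ftl1 in TPM came to 0.889 and 1.18 in replicates 1 and 2 (mean 1.04 ± 0.207, SD, n = 2), so which chain was higher differed between the libraries. The same ratio in CPM (counts scaled to library size, not to length) was 0.657 and 1.01.

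The other ferritin genes were far lower or at 0. Ftl1-ps1, a copy annotated as protein-coding in M21, was at 116 and 73.1 TPM in replicates 1 and 2, and the processed pseudogene Ftl2-ps at 69.1 and 28.1 TPM. Ftmt, the mitochondrial ferritin, and Fthl17a to Fthl17f, X-linked heavy-chain-like genes, had 0 counts in either library, which for counting error alone leaves room for up to 3. Adding every gene whose symbol begins with Fth, Ftl or Ftmt moved the ferritin share of TPM to 7.67%.

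Copies bear on how firmly Ftl1 reads can be placed. Of the distinct 31-base words in M21 transcripts of Ftl1, 64.1% also occurred in another gene, and 9 genes, 5 of them annotated as processed pseudogenes, shared at least 50 such words. Together those 9 genes held counts equal to 0.733% of those of Ftl1 in replicate 1 and 0.792% in replicate 2. One of them, the miRNA model Gm22133 inside Ftl1 on the same strand, had 661 and 914 counts but is listed at 0 TPM. For Fth1 the shared part was 3.24%, with 1 pseudogene, Gm6977, at 1 and 0 counts.

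Under M21 the ferritin counts were assigned mainly to transcript models other than the full-length coding ones. Of Fth1 TPM, 81.6% in replicate 1 and 53.3% in replicate 2 fell on Fth1-204, and 17.8% and 46.3% on Fth1-209. In the table quantified from reads Fth1-204 took 92.6% and 98.4%, and Fth1-209 6.12% and 0. Both are annotated as protein-coding. Fth1-204 is a model of 516 bases that lies wholly inside the exons of the full-length model Fth1-201. It carries the tags for an mRNA end and a coding end that were not found, and the tag not_organism_supported. Fth1-209 has 592 bases and stops 355 bases short of the end of Fth1-201. The full-length Fth1-201, 929 bases long, received 0.51% and 0.37% of Fth1 TPM. M4 lists 1 model for Fth1, Fth1-201, which held 100% in both libraries. How much of the M21 levels of Fth1-204 and Fth1-209 comes from reads over exons shared with Fth1-201 was not tested. Models with the hairpin, 5 of 9 under M21, held 99.87% and 99.98% of the Fth1 level.

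For Ftl1 the picture was different. The coding model Ftl1-201 received 3108 TPM in replicate 1 and 1133 TPM in replicate 2, which with the other coding models came to 8.92% and 2.90% of the Ftl1 level. The retained-intron model Ftl1-206 received 62.8% and 93.9%, and the noncoding model Ftl1-203 received 28.2% and 0.68%. Ftl1-206 consists of 604 bases, of which 465, or 77.0%, lie in the last 2 exons of Ftl1-201 and 139 in an intron, and it starts 1085 bases downstream of Ftl1-201. It therefore has neither the 5′ UTR nor the hairpin. Models with the hairpin, Ftl1-201 and Ftl1-202, held 8.94% of the Ftl1 level in replicate 1 and 5.35% in replicate 2. The table quantified from reads gave 11.5% and 15.3%. Most bases of Ftl1-206 are shared with the coding model, and how much of its level comes from reads over those shared exons was not tested.

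The Ftl1 hairpin window also occurs, base for base, in Ftl1-ps1-202 at chr13:74406428-74406457 (plus strand), which was at 116 and 72.5 TPM. It is the only other ferritin gene among those reaching 1 TPM with the hairpin, since Ftl2-ps lacks the pattern.

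**Figure D2:**
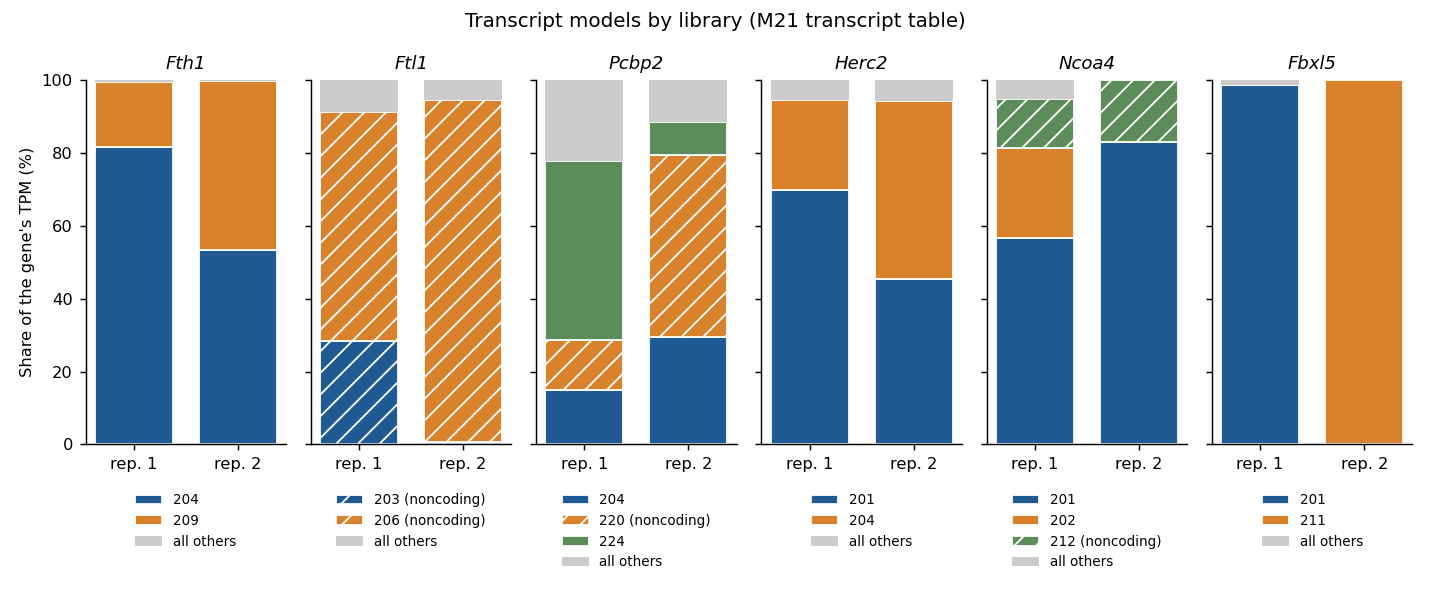
Share of the gene's TPM (vertical axis, percent) assigned to each transcript model in replicates 1 and 2, for the 6 genes with more than 1 model at 10% or more in either library; hatching marks models annotated as noncoding and grey the sum of all others. Ftl1-206, without the hairpin, takes 62.8% and 93.9% of Ftl1, and the maximum likelihood TPM places Fbxl5 on a different model in each library.

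The iron regulatory proteins were low. Aco1 (ENSMUSG00000028405.9, chr4:40143081-40198338, plus strand), IRP1, measured 10.6 and 6.96 TPM in replicates 1 and 2 (mean 8.79 ± 2.59 TPM, SD, n = 2). Nearly all of it, 99.7% and 100% of TPM, was on the coding model Aco1-201, and none of its 31-base words occurred in another gene.

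Ireb2 (ENSMUSG00000032293.8, chr9:54863789-54912530, plus strand), IRP2, measured 1.25 and 0.20 TPM in replicates 1 and 2 (mean 0.725 ± 0.742 TPM, SD, n = 2). These levels rest on 491 and 14 counts. The exact Poisson 95% interval of the level was 1.14 to 1.37 TPM in replicate 1 and 0.109 to 0.336 TPM in replicate 2, so these did not overlap. The authors' intervals, 1.13 to 1.42 and 0.136 to 0.665 TPM, do not overlap either. The gap between the libraries depended on the table. In the M4 table Ireb2 had 776 and 103 counts, or 1.99 and 1.62 TPM, and the table quantified from reads gave 3.18 and 1.77 TPM. Rescaled over nuclear protein-coding genes, an alternative added after seeing the data, the table from reads gave 4.29 and 7.45 TPM, with replicate 2 the higher.

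The ratio of Aco1 to Ireb2 in TPM came to 8.50 and 34.8 in replicates 1 and 2 (mean 21.6 ± 18.6, SD, n = 2). In the M4 table it was 5.61 and 4.74 and in the table from reads 3.18 and 1.22. Aco1 was the higher of the pair in each library and table, and the size of the ratio was not settled. Of the listed proteins that build and insert iron-sulfur clusters, on which the switch of Aco1 depends, 11 of 11 genes found were detected. Ciapin1, an electron carrier of that pathway, had the highest mean, with 304 and 210 TPM, Ciao2b, a subunit of its targeting complex, had 99.8 and 37.4 TPM, and Ciao2a, its paralog that matures Aco1 in human cells, had the lowest mean, with 18.9 and 4.89 TPM. Of these 11 genes 1 was over 2-fold higher and 7 over 2-fold lower in replicate 2, beside 15.5% and 35.4% of the 9029 genes with a mean count of at least 50.

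Fbxl5 (ENSMUSG00000039753.16, chr5:43744615-43821638, minus strand), which holds iron in a hemerythrin-like domain and is stable when iron is bound, measured 8.24 and 5.25 TPM in replicates 1 and 2 (mean 6.75 ± 2.11 TPM, SD, n = 2). It stood above its substrate Ireb2 in both libraries of the M21 table, but below it in replicate 2 of the table from reads, at 1.05 against 1.77 TPM. In replicate 1 98.7% of its level was on Fbxl5-201 and 0 on Fbxl5-211, and in replicate 2 100% was on Fbxl5-211 and 0 on Fbxl5-201. The models share 2814 of 2858 bases, and Fbxl5-211 starts 41 bases further downstream. The switch between them was complete in the maximum likelihood estimate only. The authors' posterior mean put 95.2% and 33.0% on Fbxl5-201, and 0.36% and 38.5% on Fbxl5-211. In replicate 2 the authors' intervals overlapped almost wholly, at 0.000162 to 4.16 TPM for Fbxl5-201 and 0.000925 to 4.26 TPM for Fbxl5-211. The level there rests on 174 counts, so which model was used is not settled. In the table from reads Fbxl5-201 took 85.7% in replicate 1 and 21.5% in replicate 2, and Fbxl5-211 took 0 and 71.0%.

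The partners that make Fbxl5 a ligase were all detected, 5 of 5. Nedd8, the modifier that activates cullins, had the highest mean, with 98.0 and 12.3 TPM in replicates 1 and 2, followed by Cand1, which exchanges F-box proteins on the cullin, at 17.0 and 86.7 TPM. Skp1a, the adaptor that holds the F-box, had the lowest mean, with 14.8 and 1.74 TPM. The order differed between the libraries, with Cand1 highest in replicate 2. Of the 5, 1 was over 2-fold higher in replicate 2 and 4 were over 2-fold lower, beside 15.5% and 35.4% of all genes compared. Fbxl5 itself stayed within 2-fold in the alignment tables. The table from reads gave it 6.33 and 1.05 TPM, over 2-fold lower in replicate 2, as were 72.6% of the 10268 genes compared in it. Rescaled over nuclear protein-coding genes, that table gave Fbxl5 8.54 and 4.39 TPM, within 2-fold.

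Ncoa4 (ENSMUSG00000056234.15, chr14:32159865-32179855, plus strand) measured 11.96 and 10.8 TPM in replicates 1 and 2 (mean 11.4 ± 0.834 TPM, SD, n = 2). In the table from reads it was at 12.3 and 4.37 TPM, where 72.6% of the genes compared were over 2-fold lower in replicate 2. Rescaled over nuclear protein-coding genes, that table gave Ncoa4 16.6 and 18.3 TPM. Its cargo Fth1 was 2590 and 4390 times higher in TPM. The coding model Ncoa4-201 held 56.7% and 83.0% of its level. Ncoa4-202, with another first exon and a longer last exon, held 24.5% in replicate 1 and 0 in replicate 2. In the M4 table the order in replicate 2 was turned round, with 77.2% on Ncoa4-202 and 22.8% on Ncoa4-201. A single-exon retained-intron model beyond the start of Ncoa4-201, Ncoa4-212, held 13.6% and 17.0%. The processed pseudogene Gm6768 shares 1786 31-base words with Ncoa4 and took 244 and 0 counts, against 2987 and 459 for Ncoa4.

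Herc2 (ENSMUSG00000030451.16, chr7:56050196-56231800, plus strand), a very large HECT-domain ligase, measured 14.7 and 11.5 TPM in replicates 1 and 2 (mean 13.1 ± 2.25 TPM, SD, n = 2). A large part of that level came from a fragment. The model Herc2-204, 476 bases long, held 24.7% and 48.9% of Herc2 TPM on 85 and 24 counts, which are 0.70% and 2.16% of the Herc2 counts. The full coding model Herc2-201, 15250 bases long, was at 10.2 and 5.20 TPM. In CPM Herc2 was 169 and 78.8, over 2-fold lower in replicate 2, as were 41.3% of the 9029 genes compared in CPM. Of its paralogs, Herc1, a giant ligase of the same family, had 23.9 and 23.3 TPM.

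The machinery that carries Ncoa4 cargo into autophagosomes was largely present: 13 of 14 genes were detected. Gabarap, one of the small membrane-anchored proteins of the autophagosome, had the highest mean, with 708 and 247 TPM in replicates 1 and 2, followed by Atg9a, a lipid-moving membrane protein, at 220 and 277 TPM. Gabarapl2, a relative of Gabarap, had the lowest mean, with 507 counts in replicate 1 and 0 in replicate 2. In replicate 2 Ulk1, the kinase that starts autophagy, was highest at 354 TPM, beside 140 TPM in replicate 1. Tax1bp1, the receptor that moves NCOA4 with ferritin in human cells, was at 23.9 and 1.79 TPM. Of the 14, 3 were over 2-fold higher and 5 over 2-fold lower in replicate 2, close to the 15.5% and 35.4% of all genes compared. Their median log2 ratio was -0.05, against -0.32 for all genes compared.

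Pcbp1 (ENSMUSG00000051695.6, chr6:86524492-86526321, minus strand), an intronless gene with 1 transcript model, measured 1101 and 4064 TPM in replicates 1 and 2 (mean 2583 ± 2095 TPM, SD, n = 2). It was 3.69 times as high in replicate 2 in TPM and 3.22 times in CPM (95% interval 3.20 to 3.25, counting error only). No other gene of the 9 was over 2-fold higher there. Its log2 ratio lay above that of 96.5% of the genes compared. The antisense gene 1600020E01Rik overlaps it by 75 bases and was at 6.06 and 7.75 TPM, and only 1.5% of Pcbp1 words occur in other genes.

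Pcbp2 (ENSMUSG00000056851.14, chr15:102470539-102500061, plus strand) measured 263 and 231 TPM in replicates 1 and 2 (mean 247 ± 23.0 TPM, SD, n = 2). The ratio of Pcbp1 to Pcbp2 was 4.18 in replicate 1 and 17.6 in replicate 2. Its level was split over models that changed between libraries. Pcbp2-224 held 49.3% and 8.94%, the retained-intron model Pcbp2-220 13.6% and 50.1%, and Pcbp2-204 14.9% and 29.4%. Of the 2952 bases of the full coding model Pcbp2-201, Pcbp2-220 covers 39.1%, Pcbp2-224 26.4% and Pcbp2-204 22.3%. M21 lists 31 models for this gene. The paralogs were low, with Pcbp4 at 2.08 and 12.4 TPM and Pcbp3 at 2 and 0 counts, while Hnrnpk, another protein built on KH domains, was at 770 and 139 TPM. Of 13 genes listed beside the 9 by family or by a shared name alone, 10 were detected. Of these 2 were over 2-fold higher and 3 over 2-fold lower in replicate 2, near the 15.5% and 35.4% of all genes compared.

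Between the libraries 2 of the 9 genes were over 2-fold apart in TPM, against 50.9% of the 9029 genes compared. Pcbp1 was higher and Ireb2 lower in replicate 2. The median log2 ratio of replicate 2 over replicate 1, on the log2(TPM + 1) scale, was -0.19 for the 9 genes and -0.32 for all genes compared. The added 1 damps low genes, so that Ireb2 stood at -0.91 on this scale while its TPM ratio was 0.16. Over the 9 genes the log2 ratio ran from that value for Ireb2 to 1.88 for Pcbp1, with Fth1 at 0.61 and Ftl1 at 0.20.

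**Figure D3:**
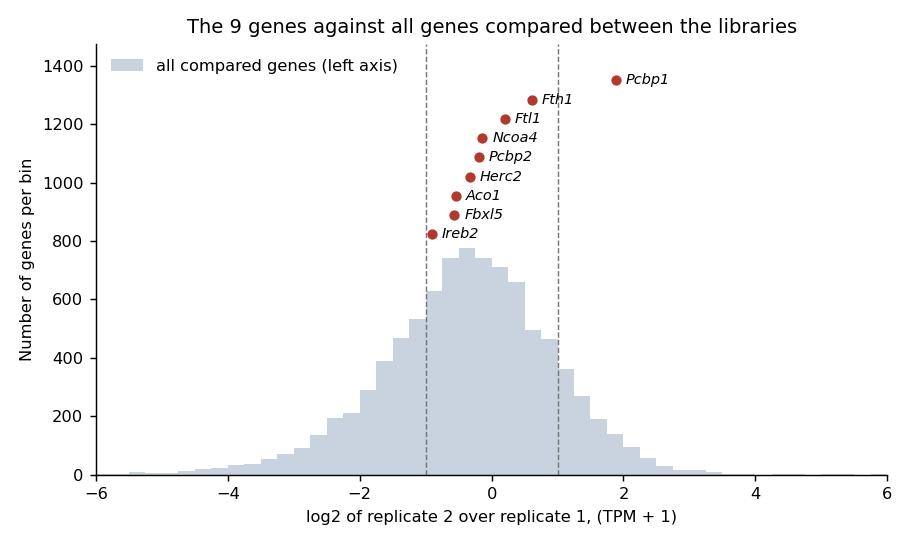
Number of genes (vertical axis) by log2 ratio of replicate 2 over replicate 1 in TPM + 1 (horizontal axis), for the 9029 genes compared, with the 9 genes as points whose height only separates them; dashed lines mark 2-fold. Pcbp1 at 1.88 lies beyond the upper line, and Ireb2 lies at -0.91, inside the lower line, because of the added 1.

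The median ratio differed between genes of low and of high GC content, and Ireb2 and Pcbp1 lie toward opposite ends of that range. Pcbp1 transcripts are 57.8% GC, at the 87.7th percentile of the genes compared, and Ireb2 transcripts 39.7% GC, at the 1.94th percentile. The median log2 ratio of genes of like GC content was 0.04 beside Pcbp1 and -0.58 beside Ireb2. Less that median, the log2 ratio was 1.85 for Pcbp1, -0.33 for Ireb2 and 1.02 for Fth1. These values carry the added 1, which damps Ireb2. With the trend divided out of the TPM ratio without it, 3 of the 9 genes were over 2-fold apart. Fth1 and Pcbp1 were higher and Ireb2 lower in replicate 2, beside 48.8% of all genes compared apart in either direction.

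The deposited tables gave different levels for several of the 9 genes. Fth1 had almost the same counts under M4, 852023 and 247092, as under M21, 854336 and 247400, but 17305 and 30022 TPM, because the M4 table divides by a length of 866 bases where M21 averages 532 and 553 bases over its models. The ratio of Fth1 to Ftl1 under M4 was therefore 0.475 and 0.681. Pcbp2 was at 50.8 and 41.4 TPM under M4, with lengths of 2863 and 2828 bases against 870 and 975 under M21. Its counts were also fewer under M4, 9486 and 1249, against 13699 and 2408 under M21. Aco1 (11.2 and 7.68 TPM), Fbxl5 (8.68 and 5.71 TPM) and Pcbp1 (1158 and 4490 TPM) lay close to their M21 values.

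The table quantified from reads departed most in replicate 2. Fth1 was there at 22054 and 9394 TPM in replicates 1 and 2, and Ftl1 at 24592 and 5631 TPM, so both were over 2-fold lower in replicate 2. Of all genes the same held widely: 72.6% of the 10268 genes compared in it were over 2-fold lower there, and the median log2 ratio of all of them was -1.16. Pcbp1, at 855 and 877 TPM, did not differ by 2-fold in it. Pcbp2 had 20826 and 20897 estimated counts in that table, against 13699 and 2408 expected counts in the M21 gene table, and 90.7% of its level in replicate 2 was on the retained-intron model Pcbp2-220. Rescaled over nuclear protein-coding genes, the ferritin share in that table was 6.30% in replicate 1 and 6.31% in replicate 2. The M21 table over the same genes gave 6.85% and 9.37%. In the rescaled table from reads Fth1 was at 29769 and 39442 TPM and Ftl1 at 33194 and 23641 TPM. Fth1 was thus higher and Ftl1 lower in replicate 2, and the near-equal shares hide these opposite shifts. On that scale Pcbp1 was at 1154 and 3683 TPM and Pcbp2 at 266 and 784 TPM in replicates 1 and 2. Both were over 2-fold higher in replicate 2, as were 16.1% of the genes compared on that scale.

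**Figure D4:**
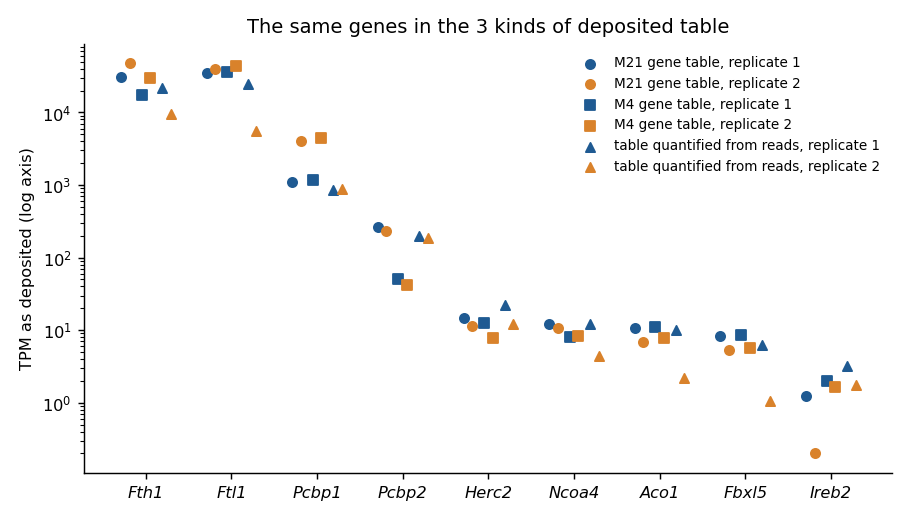
TPM as deposited (vertical axis, log scale) of the 9 genes in the M21 gene table (circles), the M4 gene table (squares) and the table quantified from reads (triangles), for replicates 1 and 2. Fth1 is at 9394 TPM in replicate 2 of the table from reads, Pcbp2 is lower in M4, and Ireb2 reaches 1 TPM in every table except M21 in replicate 2.

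Other genes of iron transport were measured beside the 9. Of the uptake genes 8 of 9 were detected, led by mean TPM by Slc25a37, the mitochondrial iron importer of erythroid cells, at 342 and 187 TPM, and Mcoln1, a lysosomal cation channel, at 252 and 96.0 TPM. Slc39a14, a metal importer, had 3 and 0 counts. Of the 8 compared, 2 were over 2-fold lower in replicate 2, Mcoln1 and Tfrc, beside 35.4% of all genes compared. Of the export and systemic genes 2 of 7 were detected: Erfe, the erythroid hormone that lowers hepcidin, at 109 and 183 TPM, and Slc40a1 at 4.0 and 1.76 TPM. Hamp, which encodes hepcidin, had 0 counts in both libraries. Of the 8 mRNAs known to carry an iron responsive element 7 were detected, the ferritins first, and Epas1, a hypoxia-inducible factor, had the lowest mean, with 1 count in each library. Of the 7, 4 were over 2-fold lower in replicate 2 and none was over 2-fold higher, beside 35.4% and 15.5% of all genes compared.

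**Figure D5:**
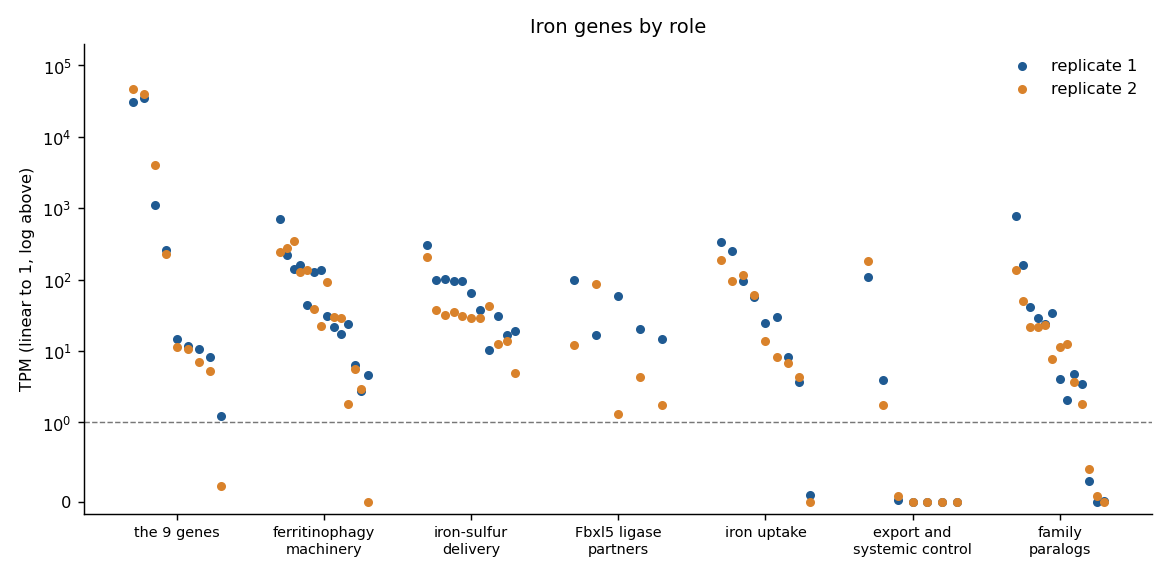
TPM of each gene (vertical axis, linear to 1 and log above) in replicates 1 and 2, grouped by role along the horizontal axis and ordered by mean within a group; the dashed line marks 1 TPM. The ferritin genes stand above every other gene shown, Pcbp1 follows, and 4 of the 7 export and systemic genes have no counts in either library.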

How the data were processed

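Both libraries of 1 group were used. Per the file headers, reads were placed on mm10, and the authors deposited gene and transcript tables for GENCODE M21 and M4 from alignments and an M21 transcript table quantified from reads. The column names are those RSEM and kallisto write, with no version or strand setting given in the sources used here. Overlapping or antisense genes may share reads. The authors' expected counts are estimated fragments, not normalized. The deposited TPM values are scaled to 1000000 per library, as maximum likelihood and posterior mean estimates. The deposited interval bounds of TPM were treated as a signal, and their level is not given. The authors' percent column gives a transcript's part of its gene, and shares were recomputed from TPM.

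Symbols came from the table quantified from reads, and coordinates, models and sequences from GENCODE M21 on mm10. Members and lists were chosen with earlier results of these data known. Named genes are the 9 members with every transcript at 10% or more of its gene in either library, the 2 highest and the lowest of each other list, and genes named Fth, Ftl, Ftmt, Pcbp or Aco reaching 1 TPM. Tax1bp1, Ulk1, Herc1, Hmox1, Spi1 and a few others were named after their values were seen. One gene that the rule names is not reported here. Ftl2, Fth1-ps, Ciao3 and Tf were not found under those symbols. Ratios are replicate 2 over replicate 1, over genes averaging at least 50 expected counts, with a pseudocount of 1 on the log2 scale. The GC trend is the median in 20 bins. Wilson and exact Poisson intervals are at 95% and, like the floor of 3 counts, cover counting error only. The code that counts genes over 2-fold apart was tested on simulated data. Expected counts were rounded for edgeR TMM and DESeq2 size factors, which were used for scaling only. Tables were handled in Python 3.11.15 with pandas 2.3.3 and numpy 2.4.6, intervals came from scipy 1.17.1, plots from matplotlib 3.10.9, and scaling factors from edgeR 4.0.16 and DESeq2 1.42.0 under R 4.3.3.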

Additional observations from a re-analysis of the deposited data

How the results depend on the processing

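Alternatives were the M4 tables, the table quantified from reads, TPM summed to a fixed total over nuclear protein-coding genes, the posterior estimates, CPM, other thresholds and pseudocounts, other scalings and each library alone. Removal of the GC trend and rescaling of the table from reads were added after seeing the data. The cause of each change was not tested. The number of genes detected stayed between 8 and 9 under every alternative. With the M4 tables the mean ratio of Fth1 to Ftl1 was 0.578, that of Pcbp1 to Pcbp2 65.6 and the median share of the main transcript 99.9%. In those tables the number over 2-fold apart was 1, Pcbp1, beside 50.1% of the 8803 genes compared. With the table from reads the ferritin share was 3.08%, the ratio of Fth1 to Ftl1 1.28, that of Aco1 to Ireb2 2.20, the number over 2-fold apart 5, beside 77.2% of all genes compared, and the median log2 ratio -1.23, beside -1.16 for all of them. CPM gave a ferritin share of 3.25%, a ratio of Pcbp1 to Pcbp2 of 22.6 and a median log2 ratio of -0.35, beside -0.59 for all genes compared. Without a count filter and with TPM + 1 the number apart was 1, Pcbp1, beside 7.54% of all 55536 genes. The median log2 ratio was -0.15 over nuclear protein-coding genes, -0.25 from posterior means and -0.0086 with TMM, and turned positive with DESeq2 size factors (0.069), the rescaled table from reads (0.41) and the GC trend removed (0.17). In the same order, the median of all genes compared was -0.29, -0.24, -0.28, -0.21, -0.086 and -0.091. Posterior means gave a median main transcript share of 68.6%, against 87.7% from the maximum likelihood TPM. From each library alone the ferritin share ran from 6.58 to 8.74%, the 3 ratios from 0.889 to 1.18, 4.18 to 17.6 and 8.50 to 34.8, and the main transcript share from 81.6 to 93.9%. No paired analysis was possible because there was 1 group.

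Apart from single libraries, single-gene levels moved by more than 1 SD in 27 cases and stayed within it in 27, and main transcript shares in 9 and 18. The cases for levels include CPM set against TPM, where a move can come from the unit alone. The 14 counts of Ireb2 in replicate 2 and an SD from 2 libraries limit what these levels can show.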
